A study of Mus musculus with 15 samples.

Results

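The genes described are complement components, receptors and regulators, which were chosen by name: C1qa, C1qb, C1qc, C3, C4b, C3ar1, C5ar1, Serping1 and Cd55. The choice was made with earlier results of these data known. Each was represented by the probe set that carried its symbol alone, and 8 of the 9 had 1 such probe set among 19937 named genes. C3 had none and is not analysed here. The RNA came from isolated left ventricular cardiomyocytes of male C57Bl/6NT mice aged 8 to 9 months, hybridised to Affymetrix arrays. Mice were given whole-body iron ions at 0.15 Gy (1 GeV per nucleon, linear energy transfer near 151 keV per µm) or a sham exposure. Iron-exposed cells were taken on day 1 (3 arrays), day 3 (3 arrays), day 7 (2 arrays), day 14 (2 arrays) and day 28 (2 arrays), while the 3 arrays of sham cells were 2 from day 1 and 1 from day 3. The title of the series speaks of a delayed response, and the comparisons ask on which day values differ. With sham cells from days 1 and 3, time and iron exposure cannot be told apart for days 7, 14 and 28. Per the labels, the digest with collagenase could carry over a few inflammatory or endothelial cells, and no label ties each array to a mouse of its own, so p-values measure a spread between arrays that may be technical.

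Complement is a cascade of plasma and cell-surface proteins that marks microbes, immune complexes and dying cells. In the classical pathway C1q binds the target and activates C1r and C1s, which cut C4 and C2 to form the enzyme that cleaves C3. The small fragments of C3 and C5 act on receptors of myeloid cells, and inhibitors such as Serping1 and Cd55 restrain the enzymes. In many tissues, the heart included, resident macrophages are the main source of C1q.

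The 3 C1q genes lie side by side on chromosome 4. In the GRCm38.p6 assembly C1qb spans 136880126 to 136886200, C1qc 136889801 to 136892936 and C1qa 136895916 to 136898844. C4b lies on chromosome 17 (34728139 to 34743902), C3ar1 on chromosome 6 (122847140 to 122856157), C5ar1 on chromosome 7 (16246743 to 16259540), Serping1 on chromosome 2 (84765360 to 84775444) and Cd55 on chromosome 1 (130429798 to 130465009). RefSeq promoters (GRCm38.p6) were held for 5 of the 8 genes. The 250 bases before the start site are shown for C1qb, C1qc and C3ar1, whose windows lie before the gene's annotated span or overlap it by at most 22 bases, to give the sequence just before the start of these genes. All 3 are on the minus strand (chr4:136886201-136886450, chr4:136892915-136893164 and chr6:122856158-122856407) and are written 5′ to 3′, with the start site next after the last base. Capitals mark GAGGAA on either strand (TTCCTC on the other), a core bound by PU.1, which is a transcription factor of macrophages, or TGANTCA, the AP-1 site, on either strand.
C1qb: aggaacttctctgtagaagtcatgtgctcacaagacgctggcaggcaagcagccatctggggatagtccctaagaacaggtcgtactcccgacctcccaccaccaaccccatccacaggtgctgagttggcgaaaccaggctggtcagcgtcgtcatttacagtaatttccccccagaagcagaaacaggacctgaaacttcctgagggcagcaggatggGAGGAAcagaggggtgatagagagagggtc
C1qc: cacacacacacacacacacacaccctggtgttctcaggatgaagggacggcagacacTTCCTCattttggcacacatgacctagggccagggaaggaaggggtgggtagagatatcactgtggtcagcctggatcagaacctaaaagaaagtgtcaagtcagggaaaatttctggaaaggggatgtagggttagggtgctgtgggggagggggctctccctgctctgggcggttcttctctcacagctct
C3ar1: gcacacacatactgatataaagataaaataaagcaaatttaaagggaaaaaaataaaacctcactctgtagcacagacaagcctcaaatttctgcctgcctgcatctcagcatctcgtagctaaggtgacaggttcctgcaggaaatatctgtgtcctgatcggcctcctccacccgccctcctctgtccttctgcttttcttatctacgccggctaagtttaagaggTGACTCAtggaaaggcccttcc
C1qb held GAGGAA from 30 to 25 bases before the start, and C1qc held it on the other strand from 193 to 188 bases before. C3ar1 held the letters TGACTCA from 22 to 16 bases before. Among 32851 RefSeq promoters of the same length, 23.3% held GAGGAA and 6.75% held TGANTCA, so these matches are a description of the letters only. The C1qc window overlaps the gene's annotated span by 22 bases. The window of C5ar1 lies largely inside that gene's span (202 of 250 bases), and that of Cd55 lies wholly inside its gene. Neither window held a motif, which does not describe the sequence before these genes' spans.

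Values below are normalized signals on the log2 scale, in which 1 unit is a 2-fold step, and differences are log2 differences with their fitted standard error (SE). Adjusted p is limma's p after Benjamini-Hochberg adjustment over the 9968 genes tested, with a threshold of 0.05. All 8 complement genes were above the signal filter and were tested. The labelled cell type was checked against 10 cardiomyocyte markers, which had mean signals of 11.41 to 12.81, and a score between -0.13 and 0.08 in every array. A score here is the mean of a list's genes in an array, each gene centred over the 15 arrays. It compares arrays with each other and does not measure how pure the cells were. Several arrays stood apart. The sham day 3 array had a thymocyte marker score of 1.82 and a lung marker score of 1.94, while the sham day 1 arrays had -1.25 and -0.89 for thymocytes and -0.20 and -0.81 for lung. Both iron day 28 arrays had thymocyte scores of 3.00 and 2.90, and they differed from each other by less than any other pair of a group (SD of the difference 0.137, against 0.206 to 0.351). Replicate 1 of iron day 1 had macrophage, fibroblast and endothelial scores of 0.16, 0.48 and 0.68, against -0.67 to -0.37 in the other 2 arrays of that day.

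The plot of signals by array shows the course that most of these genes shared: low in the iron arrays of day 3, high on day 7, and near or below sham on days 14 and 28.

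**Figure D1:**
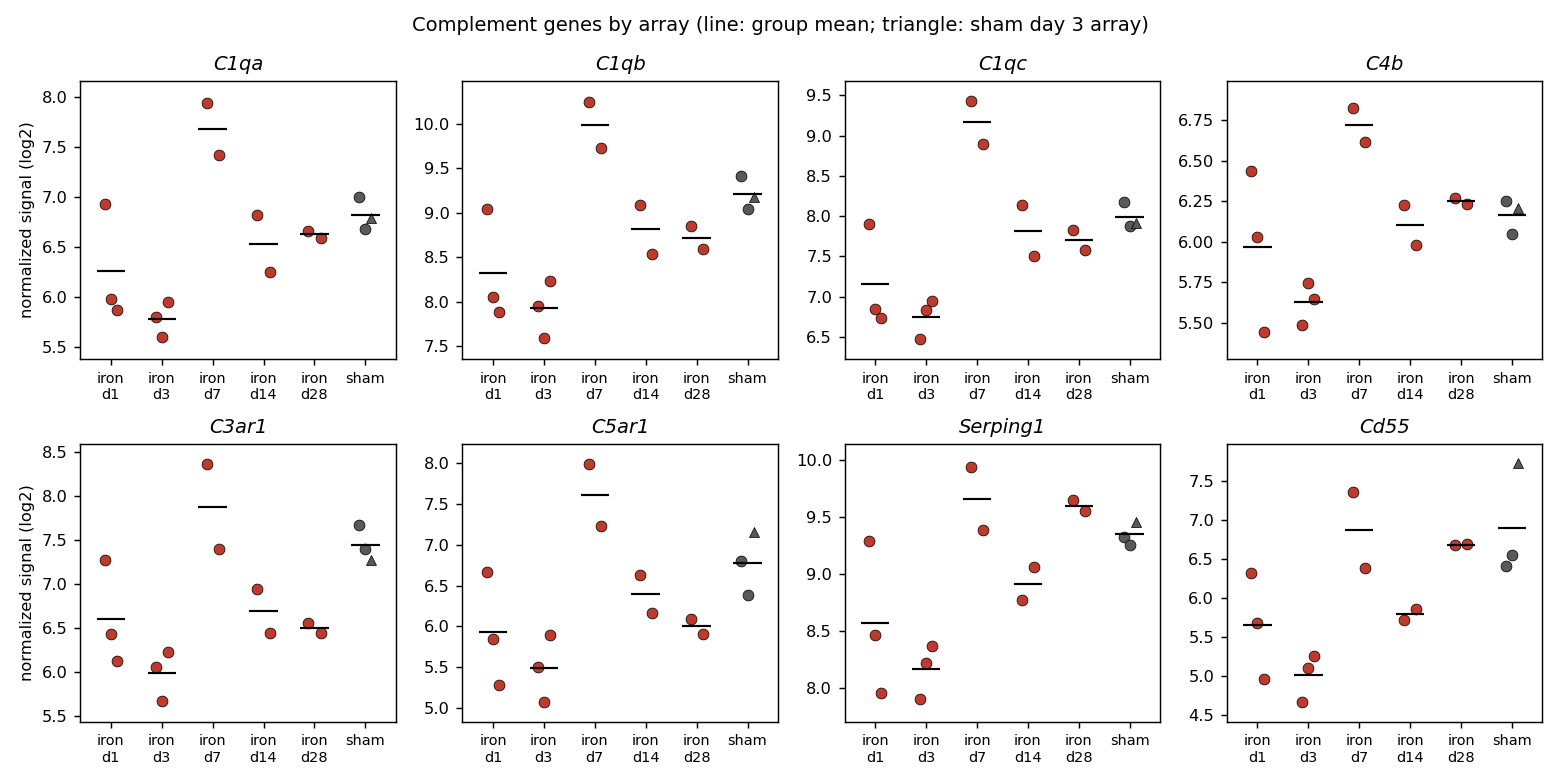
Normalized signal (log2) of the 8 complement genes in each of 15 arrays, by iron day and sham, with 1 panel and its own scale per gene. Points are arrays, lines are group means and the triangle is the sham day 3 array. In all 8 panels every iron day 3 array lies below every sham array and below both iron day 7 arrays.

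The C1q genes encode the chains A, B and C of the recognition molecule that starts the classical pathway. C1qa had signals of 6.93, 5.98 and 5.87 on iron day 1, 5.80, 5.60 and 5.95 on day 3, 7.94 and 7.42 on day 7, 6.82 and 6.25 on day 14 and 6.66 and 6.59 on day 28, against 7.00, 6.68 and 6.78 in sham. C1qb had 9.04, 8.05 and 7.89 on iron day 1, 7.95, 7.59 and 8.23 on day 3, 10.25 and 9.73 on day 7, 9.09 and 8.54 on day 14 and 8.85 and 8.59 on day 28, against 9.41, 9.04 and 9.18 in sham. C1qc had 7.90, 6.84 and 6.73 on iron day 1, 6.47, 6.84 and 6.95 on day 3, 9.43 and 8.90 on day 7, 8.14 and 7.50 on day 14 and 7.82 and 7.58 on day 28, against 8.18, 7.88 and 7.91 in sham. For each chain the day 7 arrays were the highest of all 15, and the day 3 arrays lay below sham without overlap. On day 1, replicate 1 lay within or next to the sham range and the other 2 arrays lay near the day 3 level.

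On day 3 C1qa fell by 1.04 (SE 0.243, adjusted p = 0.0241 in limma, n = 3 in each group), C1qb by 1.29 (SE 0.269, adjusted p = 0.0162) and C1qc by 1.24 (SE 0.271, adjusted p = 0.0185). These are 2.05-fold, 2.45-fold and 2.36-fold lower signals. On day 7 C1qc rose by 1.17 (SE 0.302, adjusted p = 0.0450). C1qa and C1qb stood at 0.86 (SE 0.272, adjusted p = 0.0829) and 0.78 (SE 0.301, adjusted p = 0.140), with both iron arrays above all sham arrays. Without replicate 1 of iron day 1 the day 7 difference of C1qa passed (adjusted p = 0.0225). The day 7 call of C1qc did not hold in 16 of the 26 other settings tried, 10 of which left out 1 array: either of day 7, any 1 of day 3, either of day 28, or any 1 of sham (adjusted p = 0.0522 to 0.245).

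C4b encodes C4, the component that C1s cuts and that then binds covalently to the target. It had 6.44, 6.03 and 5.45 on iron day 1, 5.49, 5.75 and 5.65 on day 3, 6.82 and 6.62 on day 7, 6.23 and 5.98 on day 14 and 6.27 and 6.23 on day 28, against 6.25, 6.05 and 6.21 in sham. The day 3 arrays lay below sham and the day 7 arrays above it, but neither difference passed: -0.54 (SE 0.186, adjusted p = 0.0875) on day 3 and 0.55 (SE 0.208, adjusted p = 0.132) on day 7. The day 3 difference passed with array weights (adjusted p = 0.0299), with only the arrays compared (adjusted p = 0.0140), and without replicate 1 (adjusted p = 0.0280) or replicate 3 (adjusted p = 0.0199) of iron day 1. Without replicate 3 of iron day 1 the day 7 difference passed too (adjusted p = 0.0446). C4a, a near-identical neighbour gene, has a probe set of its own with a mean of 4.66 that was below the filter, and whether the 2 probe sets also detect each other's transcript was not tested.

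C3ar1 and C5ar1 encode the receptors of the fragments C3a and C5a, which draw in and activate myeloid cells. C3ar1 had 7.27, 6.43 and 6.12 on iron day 1, 6.05, 5.67 and 6.23 on day 3, 8.36 and 7.40 on day 7, 6.95 and 6.44 on day 14 and 6.56 and 6.45 on day 28, against 7.67, 7.40 and 7.27 in sham. C5ar1 had 6.66, 5.84 and 5.28 on iron day 1, 5.50, 5.07 and 5.90 on day 3, 8.00 and 7.24 on day 7, 6.62 and 6.16 on day 14 and 6.09 and 5.91 on day 28, against 6.80, 6.38 and 7.16 in sham. Both receptors fell on day 3, C3ar1 by 1.46 (SE 0.285, adjusted p = 0.0121) and C5ar1 by 1.29 (SE 0.324, adjusted p = 0.0310). On day 28 both arrays lay below all sham arrays for both genes. The differences there were -0.94 for C3ar1 (SE 0.319, adjusted p = 0.139) and -0.78 for C5ar1 (SE 0.363, adjusted p = 0.260). That of C3ar1 passed with array weights (adjusted p = 0.00424) and with only the arrays compared (adjusted p = 0.0185).

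Serping1 encodes the C1 inhibitor, a serpin that inactivates C1r and C1s and also inhibits the contact system of coagulation. It had 9.29, 8.47 and 7.96 on iron day 1, 7.90, 8.22 and 8.37 on day 3, 9.94 and 9.38 on day 7, 8.77 and 9.06 on day 14 and 9.65 and 9.55 on day 28, against 9.33, 9.26 and 9.45 in sham. It fell by 1.18 on day 3 (SE 0.256, adjusted p = 0.0180), a 2.27-fold lower signal. Unlike in C1q and the receptors, both day 28 arrays lay above all sham arrays (0.25, SE 0.286, adjusted p = 0.660), and whether the genes differ in this was not tested.

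Cd55 encodes decay-accelerating factor, a membrane protein that takes apart the enzyme that cleaves C3. It had 6.32, 5.68 and 4.96 on iron day 1, 4.66, 5.10 and 5.25 on day 3, 7.35 and 6.38 on day 7, 5.72 and 5.85 on day 14 and 6.67 and 6.69 on day 28, against 6.40, 6.54 and 7.72 in sham. The value of 7.72 is that of the sham day 3 array, 1.24 above the mean of the sham day 1 arrays, and it is the highest of all 15. Cd55 had the largest day 3 fall of the 8 genes, at 1.88 (SE 0.368, adjusted p = 0.0121), which is 3.69-fold. Without the sham day 3 array its difference was -1.47, and that of C3ar1 was then the larger at -1.55. On day 7 its arrays lay on both sides of the sham day 1 arrays (-0.02, SE 0.412, adjusted p = 0.982).

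Of the 8 genes, 7 fell on day 3 and 0 rose, and the median difference was -1.26, against 0.0366 over all genes tested. Of all genes tested, 5.25% were called lower and 2.79% higher on day 3. All 8 had every iron array below every sham array, which held for 15.8% of genes tested, while 19.8% had every iron array above. As the 8 were chosen with earlier results of these data known, setting their counts beside such shares is a description and not a test. The number that passed rests on single arrays. Leaving out the sham day 3 array or replicate 1 of iron day 3 left 3 genes, C1qb, C3ar1 and Cd55 in both cases. Leaving out replicate 1 of sham day 1 left Cd55. With the replicate number as a block, a fit that also leaves out the sham day 3 array, C1qb and C3ar1 passed. With replicate 2 of iron day 3 left out, limma called 0 (adjusted p = 0.0512 to 0.121 for the 7), and the same count was 0 without both day 28 arrays and the sham day 3 array. With every array in, all 8 had p below 0.05 before adjustment. All 8 differences stayed below 0 in each of these settings, and the median lay between -1.39 and -1.13 over all those tried.

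On day 1, limma called 0 of the 8, while 7 of them had p below 0.05 before adjustment. All differences were below 0 (-1.24 to -0.20, median -0.83), and of all genes tested 0.0602% were called lower. The arrays of C1qb, C3ar1 and Cd55 lay below sham without overlap, as did 5.80% of genes tested, while 7.59% lay above. For C1qb and C3ar1 the gap was close to none, as replicate 1 of iron day 1 was level with the lowest sham array (9.0396 against 9.0399, and 7.2740 against 7.2743). Without replicate 1 of iron day 1, 7 of the 8 fell, C4b being the exception, with C1qb at -1.24 (adjusted p = 0.00766) and Serping1 at -1.13 (adjusted p = 0.00662). On day 7, 1 of the 8 rose, C1qc, where 1.95% of genes tested were called higher and 2.67% lower. The iron arrays of 5 genes (the C1q chains, C4b and C5ar1) lay above sham without overlap, and 15.3% of genes tested did so, while 22.5% lay below. On days 14 and 28, limma called 0 of the 8 (2 and 1 of them with p below 0.05 before adjustment). Of all genes tested, 0.241% were called lower and 0.592% higher on day 14, and 0.582% lower and 1.41% higher on day 28. Both day 14 arrays of C3ar1, Serping1 and Cd55 lay below all sham arrays, as did those of 17.0% of genes tested, while 13.7% lay above. On day 28 this held for the C1q chains, C3ar1 and C5ar1, against 19.4% of genes tested, and the arrays of Serping1 lay above, as did 25.7%. The median differences were -0.39 on day 14 and -0.25 on day 28.

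**Figure D2:**
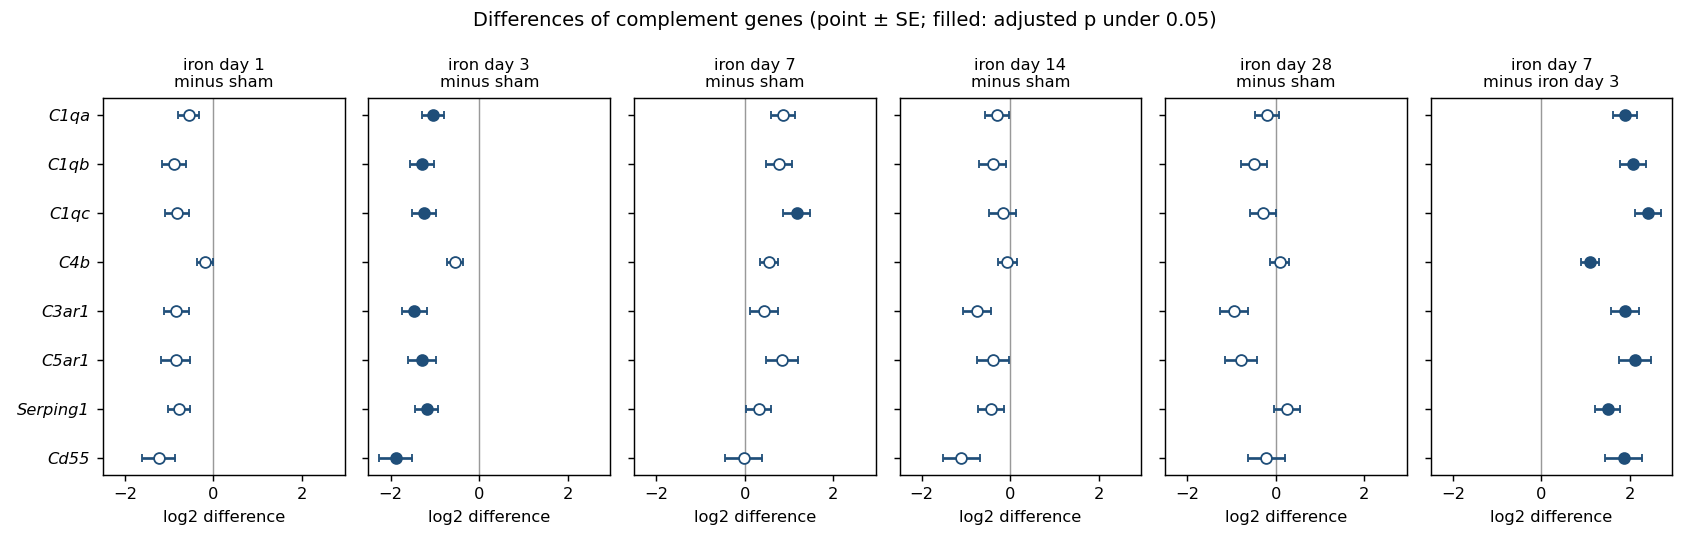
Log2 differences of the 8 complement genes at each iron day minus sham and for iron day 7 minus iron day 3. Points are fitted differences and bars are ± 1 SE, and filled points have an adjusted p under 0.05 in limma. On day 3 the points lie between -1.88 and -0.54, and for day 7 minus day 3 they lie between 1.09 and 2.41.

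The comparisons with sham share the same 3 sham arrays, so the days were also compared with each other. All 8 genes were higher on day 7 than on day 3, where 6.75% of genes tested were called higher and 8.07% lower, and in all 8 the arrays of the 2 days did not overlap, as in 18.0% of genes tested with day 7 above and 29.4% with day 7 below. C1qc had the largest difference, 2.41 (SE 0.302, adjusted p = 0.000722), a 5.32-fold higher signal. C5ar1 followed with 2.13 (SE 0.363, adjusted p = 0.00329) and C1qb with 2.07 (SE 0.301, adjusted p = 0.00177). C1qa and C3ar1 were higher by 1.90 each (adjusted p = 0.00177 and 0.00305), Cd55 by 1.86 (adjusted p = 0.0105), Serping1 by 1.50 (adjusted p = 0.00533) and C4b by 1.09 (adjusted p = 0.00530). The 3 C1q chains passed in each of the 26 other settings tried. The other 5 passed in all settings that tested them except 1: without replicate 1 of iron day 7, adjusted p was 0.0711 for C3ar1, 0.0740 for C5ar1, 0.0870 for C4b, 0.101 for Serping1 and 0.174 for Cd55.

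All 8 were also higher in late iron (days 7, 14 and 28) than in early iron (days 1 and 3), with differences of 0.56 for C4b to 1.27 for C1qc, where 10.3% of genes tested were called higher and 11.7% lower. Late and early arrays overlapped in all 8, and did not in 1.77% (late above) and 2.57% (late below) of genes tested. With 1 array left out, 7 or 8 of the genes passed. The call of C3ar1 (0.73, SE 0.202, adjusted p = 0.0223) was lost without replicate 2 or 3 of iron day 1, replicate 2 of iron day 3, replicate 1 of iron day 7, replicate 1 of iron day 14 or replicate 1 of iron day 28 (adjusted p = 0.0543 to 0.0694 over these), and with the day 28 arrays averaged as 1 sample (adjusted p = 0.0527). With the replicate number as a block, and without the sham day 3 array, C4b lost its call in late minus early iron (0.43, adjusted p = 0.0530). It also lost it in the F test among iron days (adjusted p = 0.0571). In that F test all 8 passed with no block, against 19.2% of genes tested. F ran from 7.00 for Cd55 (adjusted p = 0.0270) to 17.6 for C1qc (adjusted p = 0.00257). The F test of C4b or Cd55 or both lost its call without replicate 1, 2 or 3 of iron day 3, replicate 1 of day 7 or either day 28 array (adjusted p = 0.0534 to 0.0902), and without replicate 1 of day 7 those of C3ar1 (adjusted p = 0.0849) and C5ar1 (adjusted p = 0.0873) did too. Group means of C1qc put day 7 first (9.16 ± 0.38, SD, n = 2) and day 3 last (6.75 ± 0.25, n = 3), with sham at 7.99 ± 0.17 (n = 3). Days 14 (7.82 ± 0.45) and 28 (7.70 ± 0.17) overlapped each other, and day 14 overlapped sham. Day 1 (7.16 ± 0.65) overlapped day 3, day 14, day 28 and sham.

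Across the 15 arrays C1qa and C1qb had a Pearson r of 0.99, C1qa and C1qc 0.98 and C1qb and C1qc 0.97, given as a description, since arrays of a group share their day. C3ar1 and C5ar1 had r of 0.90 to 0.97 with the C1q chains. Serping1 and Cd55 had r of 0.93 with each other and 0.76 to 0.85 with the C1q chains. Among all genes tested outside the 8, the pattern most like C1qa and C1qb was that of Folr2 (r = 0.98 and 0.99), and most like C1qc that of Vsig4 (r = 0.99). The next ones were Vsig4 and Dab2 for C1qa, Csf1r and Dab2 for C1qb, and Folr2 and Fcgr3 for C1qc (r = 0.97 to 0.98). The 3 most like C3ar1 were Entpd1, Mrc1 and Lilrb4a, and those most like C5ar1 were Fcgr2b, Alox5ap and Folr2 (r = 0.96 to 0.98). Those of C4b were Wfdc17, Pltp and Wfdc18 (r = 0.93 to 0.96). Those of Serping1 were Tmsb4x, Marcks and Ly6e (r = 0.98 to 0.99), and those of Cd55 were Clic1, Myof and Ifitm1 (r = 0.96).

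Macrophage, fibroblast, endothelial and mesothelial markers tested had median differences below 0 on day 3 against sham, as the complement genes did. For day 7 minus day 3 the medians of all these lists were above 0. On day 7 against sham the lists did not all lie on the same side. In bulk RNA fewer cells of a type and less RNA per cell cannot be told apart. The macrophage score, over 15 markers, was -0.77 to -0.57 on iron day 3 and 0.73 to 1.25 on day 7, against 0.21 to 0.47 in sham. Of these, 11 passed the signal filter, and Fcgr1, Cd163, Aif1 and Cd14 did not, with means of 4.28 to 5.42. On day 3, 8 of the 11 fell (median -1.46). On day 7, limma called 0 against sham (4 with p below 0.05 before adjustment, median 0.51), and 10 were higher on day 7 than on day 3 (median 2.02). Adgre1, a surface marker of mouse macrophages, fell by 1.46 on day 3 (adjusted p = 0.00632) and was higher by 2.02 on day 7 than on day 3 (adjusted p = 0.000587). Cx3cr1, a chemokine receptor of resident macrophages, stood at -0.09 and 0.12 in the same comparisons (adjusted p = 0.669 and 0.597). The fibroblast score was -0.77 to -0.59 on day 3 and 0.10 to 0.50 on day 7, against 0.53 to 0.65 in sham, and the endothelial score was -0.84 to -0.43 and -0.31 to 0.29, against 0.34 to 0.73. On day 3, 10 of 13 fibroblast and 8 of 11 endothelial markers tested fell, and 11 of the 13 and 3 of the 11 were higher on day 7 than on day 3. Against sham on day 7, limma called 0 of either list. The medians there were -0.20 for fibroblast markers (10 of 13 below 0) and -0.57 for endothelial markers (10 of 11 below 0), against 0.66 for the complement genes. Mesothelial markers, genes of the lining of the heart's surface, had scores of -0.54 to -0.25 on day 3 and 0.76 to 1.49 on day 7, against -0.57 to 0.78 in sham. Of the 8, limma called 0 on day 3 (median -0.59), 2 rose on day 7 against sham (median 1.12) and 7 were higher on day 7 than on day 3. Of 6 erythroid markers listed, 3 had a probe set and 2 were tested, with a day 3 median of -2.40 and all iron arrays below all sham arrays. Neither passed (Alas2 -2.46, SE 1.02, adjusted p = 0.143, and Slc4a1 -2.33, SE 0.804, adjusted p = 0.0878), and the erythroid score was -1.38 to -0.13 on day 3 and -0.74 to 0.45 on day 7, against 0.21 to 1.94 in sham. Of 8 neutrophil markers 0 passed the signal filter, with means of 3.17 to 5.24. Of the 10 cardiomyocyte markers, 1 fell on day 7 against sham and 1 was lower on day 7 than on day 3. In late minus early iron 4 of the 10 were called lower and 0 higher (differences of -0.22 to 0.05), where 11.7% of genes tested were called lower. In the same contrast 9 of 11 macrophage, 10 of 13 fibroblast, 3 of 11 endothelial and 7 of 8 mesothelial markers tested were called higher. Of thymocyte markers 2 of 2 were called higher, of lung markers 0 of 3 and of erythroid markers 0 of 2, against 10.3% of genes tested. The part of these cells in the complement results was not tested.

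**Figure D3:**
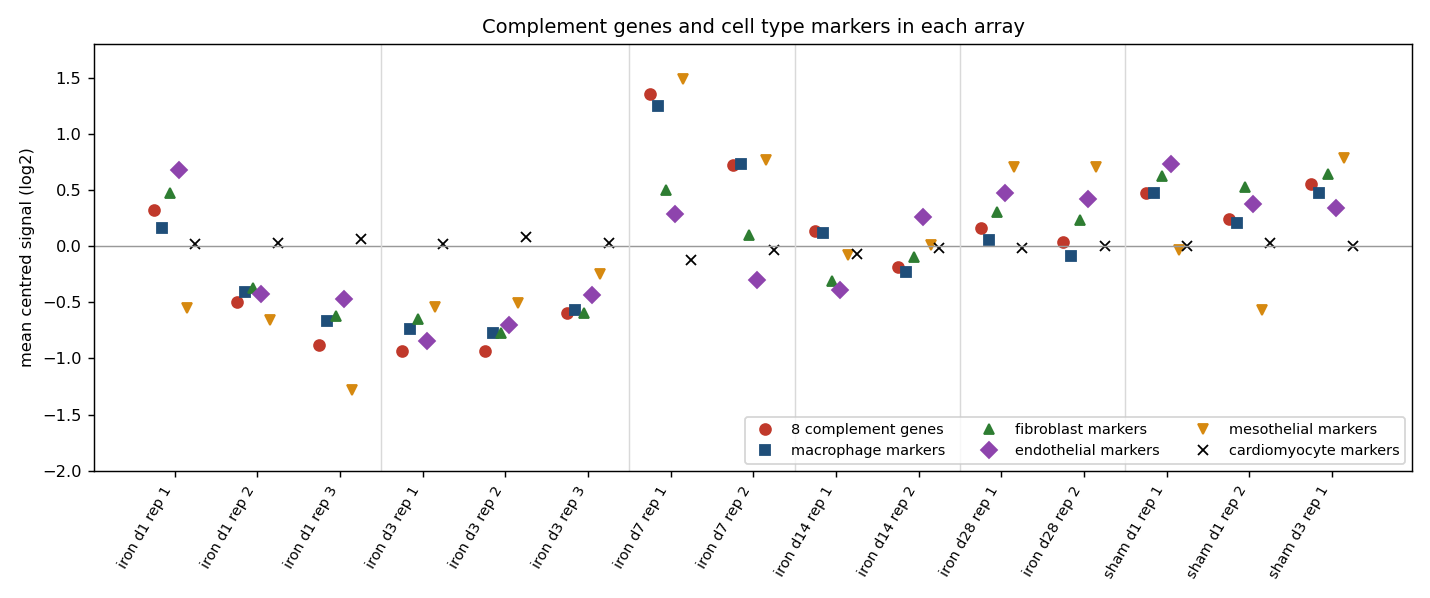
Mean centred signal (log2) in each array for the 8 complement genes and for lists of macrophage, fibroblast, endothelial, mesothelial and cardiomyocyte markers. Each point is the mean of a list's genes in 1 array after each gene was centred over the 15 arrays. The complement and macrophage points are high in both iron day 7 arrays and low in the 3 iron day 3 arrays, while the cardiomyocyte points stay between -0.13 and 0.08.

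Of 46 other complement genes listed, 43 had a probe set and 15 passed the signal filter. On day 3, 3 of the 15 fell and 0 rose (median -0.59), where 5.25% of genes tested were called lower and 2.79% higher. The 3 were Vsig4 (-1.23, SE 0.302, adjusted p = 0.0280), a receptor of resident macrophages for C3 fragments, Itgb2 (-1.25, SE 0.280, adjusted p = 0.0209), the shared beta chain of complement receptors 3 and 4, and C7 (-1.47, SE 0.315, adjusted p = 0.0172), a component of the membrane attack complex. With replicate 1 or 2 of iron day 3 or replicate 1 of sham day 1 left out, limma called 0 of the 15, and with the sham day 3 array left out it called 1. Before adjustment 7 had p below 0.05 with all arrays. On days 1 and 14 limma called 0 of the 15, with 5 and 0 at p below 0.05 before adjustment. In the F test among iron days, 7 of the 15 passed, against 19.2% of genes tested.

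On day 7, 4 of the 15 rose and 0 fell (median -0.13), where 1.95% of genes tested were called higher and 2.67% lower. Fcna, ficolin A, a recognition molecule of the lectin pathway, had 8.71 and 7.67 on iron day 7, against 5.46, 5.70 and 6.98 in sham. It rose by 2.14 (SE 0.434, adjusted p = 0.0189). Cfp, properdin, which stabilizes the enzyme of the alternative pathway, had 8.45 and 7.59, against 6.57, 6.18 and 7.19 in sham, and rose by 1.37 (SE 0.279, adjusted p = 0.0189). C2, the partner of C4 in the classical enzyme, had 7.04 and 6.60, against 5.43, 5.09 and 5.84 in sham, and rose by 1.37 (SE 0.215, adjusted p = 0.00691). Vsig4 rose by 1.41 (SE 0.338, adjusted p = 0.0350). In Fcna, Cfp and C2 the highest sham array was that of day 3. Without replicate 1 of iron day 7 the count was 0, and 1 gene passed with either sham day 1 array left out. It was also 0 in limma with only the arrays compared.

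On iron day 28, 1.41% of genes tested were called higher and 0.582% lower. C2 had 6.59 and 6.68 on iron day 28 and rose by 1.18 (SE 0.215, adjusted p = 0.0123). Masp1, a lectin pathway protease, had 6.33 and 6.20 on day 28, against 7.67, 7.43 and 6.81 in sham, and fell by 1.04 (SE 0.244, adjusted p = 0.0469). These were the only 2 of the 15 called on day 28, and the count was 0 without either day 28 array, without replicate 1 of sham day 1, or with the day 28 arrays averaged as 1 sample. Masp1 also lost its call without replicate 2 or 3 of iron day 1, replicate 1 or 2 of iron day 3 or replicate 2 of sham day 1. Without the sham day 3 array, 3 of the 15 rose and 1 fell.

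**Figure D4:**
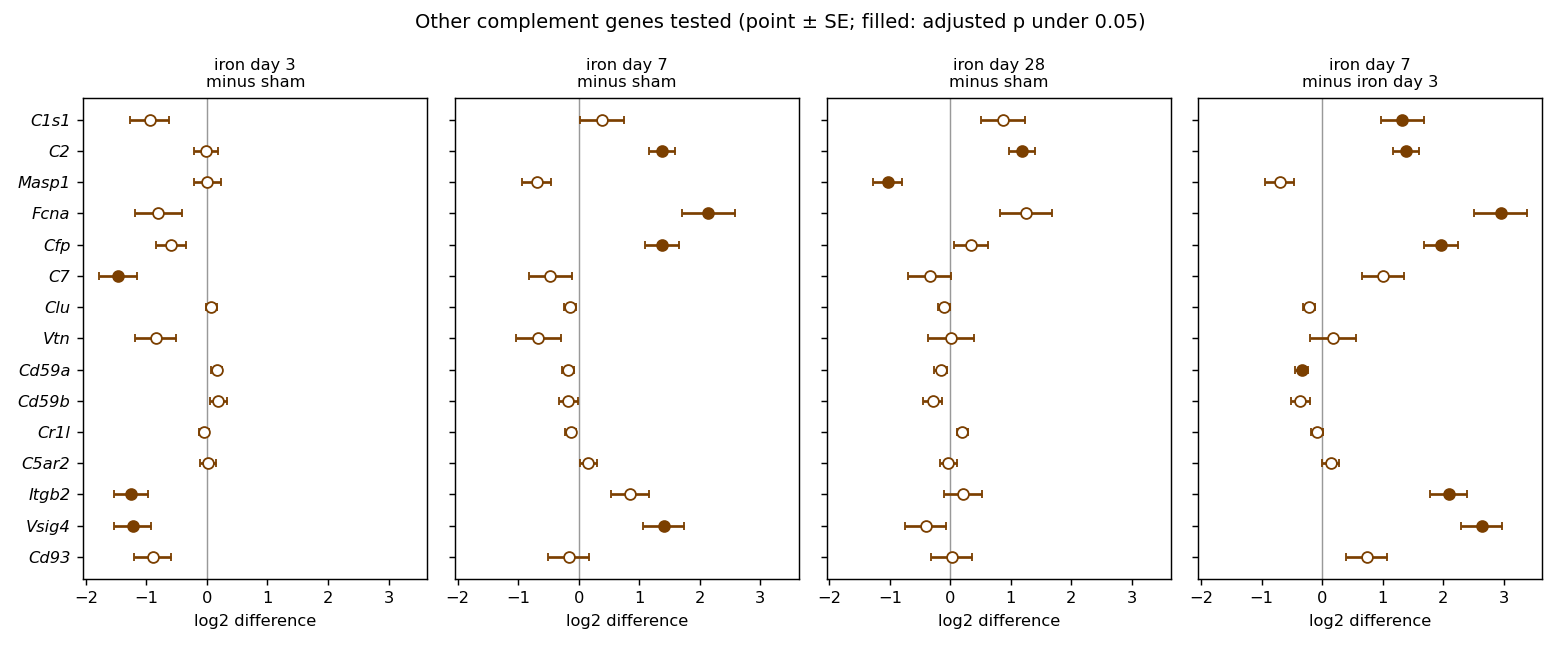
Log2 differences of the 15 other complement genes tested, on iron days 3, 7 and 28 minus sham and for iron day 7 minus iron day 3. Points are fitted differences, bars are ± 1 SE and filled points have an adjusted p under 0.05 in limma. Fcna lies farthest to the right on day 7, at 2.14, while Clu and Cd59a stay within 0.34 of 0 in the 4 panels.

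Between day 7 and day 3, 6 of the 15 were higher on day 7: Fcna (2.95, adjusted p = 0.00180), Vsig4 (2.64, adjusted p = 0.000858), Itgb2 (2.09, adjusted p = 0.00201), Cfp (1.96, adjusted p = 0.00170), C2 (1.39, adjusted p = 0.00214) and C1s1, the gene of the protease C1s (1.33, adjusted p = 0.0267). Among genes tested, 6.75% were called higher and 8.07% lower. Cd59a, an inhibitor of the membrane attack complex, was lower by a small amount (-0.34, SE 0.105, adjusted p = 0.0470). Its call was lost without any 1 of 8 arrays (replicate 3 of iron day 1, any of day 3, replicate 1 of day 7, either of day 28 and replicate 2 of sham day 1), and without replicate 1 of day 7 the number higher was 4. Clu, clusterin, a soluble inhibitor of the same complex, had signals of 10.34 to 10.88 over all 15 arrays. It was lower in late than in early iron (-0.21, SE 0.0653, adjusted p = 0.0332). Cd59a had signals of 9.81 to 10.33 and was lower in late iron by a like amount (-0.20, SE 0.0663, adjusted p = 0.0421). With Masp1 (-0.75, adjusted p = 0.00546) they made 3 of 15 lower and 6 higher in late iron, and the lower count was 1 without any 1 of 8 arrays (replicate 2 or 3 of iron day 1, replicate 1 or 3 of day 3, replicate 1 of day 7, replicate 1 of day 14, and either of day 28). In late minus early iron, 11.7% of genes tested were called lower and 10.3% higher. Vtn, Cd59b, Cr1l, C5ar2 and Cd93 did not pass in any comparison.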

How the data were processed

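The deposited table gave 1 value for each of 34760 Affymetrix probe sets in 15 arrays. The values the authors deposited are on a log2 scale (0.23 to 13.01, array medians 4.96 to 5.13). Per the submitters' processing notes MAS5 was used, with role, version and settings not stated in those notes. Symbols came from the platform annotation: 21640 probe sets had 1 symbol, 1321 several and 11799 none. The complement genes and all lists were chosen with earlier results of these data known.

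Each gene was represented by the single-symbol probe set with the highest mean over the 15 arrays (19937 genes), and 9968 genes above the median mean signal (5.51) were tested. Differences were fitted with limma 3.58.1 in R 4.3.3 (lmFit, eBayes with an intensity trend, 6 group means, the sham arrays pooled), with Benjamini-Hochberg adjustment over all genes tested. Tables and plots used pandas 2.3.3, numpy 2.4.6 and matplotlib 3.10.9 in Python 3.11.15. The fit was also run on simulated data with 200 genes changed on iron day 3 and noise drawn for each gene alone. That setting does not cover shifts that many genes share between arrays. Each group holds 2 or 3 arrays, and this number limits the precision. Genes named with values are the complement genes, other complement genes that passed in any comparison, the paralog C4a, the 3 genes nearest each complement gene by Pearson correlation, and markers. Complement genes that were tested and never passed are listed by name. Replicate numbers were not shown to pair the arrays: deviations of same-numbered arrays had correlations of -0.39 to 0.57 over 31 pairs of arrays. Their median was 0.088, with 14 pairs over 0.1. Arrays with other numbers had -0.57 to 0.49 over 50 pairs, with a median of -0.065 and 13 pairs over 0.1. Whether same-numbered arrays share an effect was not tested. The alternatives changed the normalization, filter, variance model, array weights, probe sets, arrays in the fit and replicate block, and left out each array in turn. Of the alternatives, 2 were chosen after seeing the data: the day 28 arrays averaged as 1 sample, and the fit without them and the sham day 3 array.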

Additional observations from a re-analysis of the deposited data

Results flagged for a closer look

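The change against sham differed between iron day 7 and iron day 3 in all 8 complement genes, by limma's test of the difference between the days, in which sham drops out. Day 7 was above day 3 by 1.90 in C1qa (adjusted p = 0.00177), 2.07 in C1qb (adjusted p = 0.00177) and 2.41 in C1qc (adjusted p = 0.000722). The difference was 1.09 in C4b (adjusted p = 0.00530), 1.90 in C3ar1 (adjusted p = 0.00305) and 2.13 in C5ar1 (adjusted p = 0.00329). It was 1.50 in Serping1 (adjusted p = 0.00533) and 1.86 in Cd55 (adjusted p = 0.0105). Both day 7 arrays were above all 3 day 3 arrays in each of the 8 genes, as in 18.0% of genes tested, while 29.4% had both below. Of all genes tested, 6.75% were called higher on day 7 than on day 3 and 8.07% lower. Without replicate 1 of iron day 7, the C1q chains alone of the 8 passed.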

How the results depend on the processing

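Some alternatives leave a fitted difference as it was, so its direction could not change there. These are a change of filter, variance model or probe sets, the fit of only the arrays compared, and leaving out an array of a group not compared. The F test has no direction, and for it only the side of the threshold was compared. Of 1616 values of the 8 complement genes under an alternative, 1511 kept their direction and side of the threshold, 77 lost the call, 15 gained it and 13 changed sign. Of these 13, 0 passed a test in either setting: C4b on day 28 (-0.022 with median centring), Cd55 on day 7 (0.23 with array weights, 0.39 with the replicate block, without the sham day 3 array or without it and both day 28 arrays, 0.46 without replicate 2 of day 7) and on day 28 (0.039 with array weights, 0.20 with the block or without the sham day 3 array), C4b on day 1 (0.065 without replicate 3), C3ar1 on day 7 (-0.047 without replicate 1), and C1qc and C4b on day 14 (0.15 and 0.060 without replicate 2). At the other end of the range on leaving out 1 array, where the sign was kept, stood -0.50 for Cd55 on day 7, -0.43 for C4b on day 1, 0.92 for C3ar1 on day 7, and -0.49 for C1qc and -0.19 for C4b on day 14. The number of all genes called was 6, 801, 460, 83 and 199 on days 1, 3, 7, 14 and 28, 1477 for day 7 minus day 3, 2194 for late minus early and 1912 for the F test. Leaving out 1 array gave 0 to 363, 126 to 1083, 46 to 556, 25 to 167, 41 to 477, 143 to 1723, 1248 to 2710 and 612 to 2577 in the same order. Median centring called 1269 on day 7. The higher and lower calls became 208 and 699 on day 3 (278 and 523 as deposited), 190 and 1079 on day 7 (194 and 266), 98 and 160 on day 28 (141 and 58), 642 and 1388 for day 7 minus day 3 (673 and 804) and 827 and 2164 for late minus early (1027 and 1167). With no filter day 1 had 0, and with a stricter signal filter day 3 had 451 and day 28 had 107. Without the intensity trend day 1 had 2. Array weights gave 69 on day 1, 1691 on day 3, 244 on day 7, 2449 on day 28 and 4051 in the F test. All probe sets gave 0 on day 1, 819 on day 7, 202 on day 14 and 413 on day 28. With only the arrays compared, days 1 and 7 had 0 and 45. The replicate block, fitted without the sham day 3 array, gave 0 on day 1, 157 on day 3, 54 on day 14, 395 on day 28, 1444 for late minus early and 1260 in the F test. Averaging the day 28 arrays gave 0 on day 1, 274 on day 7, 34 on day 28, 1313 for late minus early and 611 in the F test. Without the sham day 3 array day 3 had 270. Without both day 28 arrays and the sham day 3 array, days 1, 3, 7 and 14 had 0, 107, 231 and 52. The cause of these shifts was not tested, beyond the fewer arrays or genes that some settings hold. No other single-symbol probe set of the 8 genes was there to compare.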
